A study of Mus musculus with 2 samples.

Results

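In MC3T3-E1, an established line of osteoblast precursors from mouse calvaria, 3239 regions with RUNX2 peaks lay outside protein-coding genes, close to but not at gene ends. RUNX2 was profiled with an antibody by CUT&Tag, in which the transposase Tn5 is tethered to an antibody and cuts nearby chromatin. The series holds 1 group of untreated cells with 2 replicate libraries, no control library and no other condition, so nothing was compared between groups and no test of a difference was possible. The replicate lists hold 26853 peaks (replicate 1) and 27287 peaks (replicate 2), and the labels leave unsaid if separate cultures were used, so their spread may be technical. Overlapping peaks of the 2 lists (1 bp or more) were joined into regions, and a region with a peak of both replicates is called shared. A shared region was kept as an intergenic region when the midpoint of its widest replicate 1 peak lay on chromosomes 1 to 19, outside every protein-coding gene, over 1 kb from the end of any annotated gene and at most 50 kb from the nearest protein-coding gene end. These regions made up 3239 of the 17836 shared regions on chromosomes 1 to 19 (18.2%, 95% Wilson interval 17.6 to 18.7), and 18133 regions were shared in all. The other shared regions on these chromosomes fell into 6794 within 1 kb of a gene end, 5766 inside protein-coding genes and 2037 intergenic regions farther than 50 kb from a coding gene. The lists give position and width only, so read depth is unknown, widths say nothing of peak height, and the intervals cover counting error only.

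RUNX2 is the Runt-family transcription factor needed for osteoblast formation, and it binds DNA together with its partner CBFB. Transcription factors bind both at promoters and at distal elements between genes, and some distal elements act as enhancers that contact a promoter over a distance. The nearest gene is a common first guess for the gene an element serves, but an enhancer can skip it. Each gene below is therefore named for its position beside a region, not as a target. Where widths or distances are given for several regions of a gene, the side (upstream or downstream) is stated only for genes whose strand the RefSeq promoter table gave.

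MicroRNA genes are among the neighbours whose products can be printed whole. RUNX2 is known in mouse osteoblasts to act on the cluster of miR-23a, miR-27a and miR-24-2 and on the cluster of miR-3960 and miR-2861. Of the 1136 microRNA genes on chromosomes 1 to 19, 37 (3.26%) had an intergenic region within 10 kb, and 32 regions lay beside them. Of these, 8 genes were chosen for display after their positions were seen, for their known link to RUNX2 or their wide use as regulators, and RefSeq (GRCm38.p6) gave mature sequences for 7 of them. The sequences run 5′ to 3′, and capitals mark the seed, bases 2 to 8, which pairs with target transcripts.
mmu-miR-2861: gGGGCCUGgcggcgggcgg
mmu-miR-23a-3p: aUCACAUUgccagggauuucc
mmu-miR-27a-3p: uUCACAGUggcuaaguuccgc
mmu-miR-24-3p: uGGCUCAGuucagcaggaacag
mmu-miR-21a-5p: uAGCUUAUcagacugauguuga
mmu-let-7a-5p: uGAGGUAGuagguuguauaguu
mmu-let-7f-5p: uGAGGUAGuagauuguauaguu
The mature let-7a and let-7f shown share the seed GAGGUAG, and the other 5 sequences have a seed each.

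A single region stood upstream of all 3 hairpins of the miR-23a cluster. It lay at chr8:84203410-84204167 (GRCm38), measured 553 bp in replicate 1 and 758 bp in replicate 2, and its position, the midpoint from which all distances here are measured, lay 4645 bp from Mir23a, 4799 bp from Mir27a and 4942 bp from Mir24-2. The region beside Mir2861 and Mir3960, at chr2:32715042-32715309, was narrow, at 165 bp in replicate 1 and 268 bp in replicate 2. It lay 2262 bp upstream of Mir2861 and 2178 bp from Mir3960, and 2366 bp from the coding gene Cdk9. The widest of the 4 regions shown lay at chr13:48545684-48546890, with 1015 bp in replicate 1 and 1085 bp in replicate 2, at 8111 bp upstream of Mirlet7a-1 and 8466 bp upstream of Mirlet7f-1. The region at chr11:86580777-86581505, 468 bp across in replicate 1 and 636 bp in replicate 2, lay 2796 bp downstream of Mir21a, whose product is abundant in many cell types.

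Few stretches of DNA under these regions could be read, because only promoter windows of annotated genes (250 bases before to 50 after a start) were at hand. In 7 regions part of such a window was covered, in each case one of a noncoding gene. These windows lay inside the span of that gene, over 1 kb from its ends. The distance rule uses the ends of spans only, so such inner starts did not exclude a region. The 4 stretches of at least 100 bases are printed, and they stand for regions at inner noncoding starts only. They are from RefSeq (GRCm38.p6), on the strand of the noncoding gene. The letters searched were the RUNX core TGTGGT with its complement ACCACA and the AP-1 motif TGACTCA with its complement TGAGTCA, which do not overlap each other, and matches are in capitals.
8430426J06Rik: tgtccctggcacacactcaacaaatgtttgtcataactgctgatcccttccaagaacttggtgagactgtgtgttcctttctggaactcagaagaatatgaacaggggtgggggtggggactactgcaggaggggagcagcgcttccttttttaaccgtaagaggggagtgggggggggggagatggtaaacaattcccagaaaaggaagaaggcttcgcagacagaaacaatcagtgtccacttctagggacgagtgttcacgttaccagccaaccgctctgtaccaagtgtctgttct
Gm36913: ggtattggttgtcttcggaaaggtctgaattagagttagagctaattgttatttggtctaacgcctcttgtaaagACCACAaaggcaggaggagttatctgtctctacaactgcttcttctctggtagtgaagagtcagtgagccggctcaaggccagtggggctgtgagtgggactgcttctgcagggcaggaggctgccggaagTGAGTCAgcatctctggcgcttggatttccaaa
Gm52922: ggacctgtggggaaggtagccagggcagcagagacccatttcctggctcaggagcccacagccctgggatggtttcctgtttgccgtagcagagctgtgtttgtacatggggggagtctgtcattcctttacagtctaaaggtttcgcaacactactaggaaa
Gm3331: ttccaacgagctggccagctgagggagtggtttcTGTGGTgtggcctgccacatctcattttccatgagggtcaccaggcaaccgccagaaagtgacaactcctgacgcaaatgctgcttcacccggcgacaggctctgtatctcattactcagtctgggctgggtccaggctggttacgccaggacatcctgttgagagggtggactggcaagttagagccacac
The stretch of 8430426J06Rik is chr15:81247922-81248221 (minus strand), that of Gm36913 is chr19:9939186-9939424 (minus), that of Gm52922 is chr6:135341150-135341312 (minus) and that of Gm3331 is chr9:32789367-32789592 (plus). Gm36913 held 1 RUNX match and 1 AP-1 match, and the same stretch of all 32851 promoter windows held the RUNX letters in 13.4% and the AP-1 letters in 4.23%. Gm3331 held 1 RUNX match, against 13.0% of equal stretches of all windows. The other 2 stretches held neither motif, against RUNX matches in 16.8% and 9.30% of equal stretches. The nearest coding gene of the Gm3331 region was Ets1, an ETS-family transcription factor gene, 31641 bp away, and that of the Gm52922 region was Emp1, 21995 bp away.

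Intergenic regions this close to genes were about as dense as those inside genes. The territory that meets the distance rule covers 516.8 Mb, 21.2% of the stretch from the first to the last gene of each chromosome, and held 6.27 regions per Mb. Protein-coding genes held 6.25 shared regions per Mb outside gene ends, the 1 kb around gene ends held 44.1 per Mb, and intergenic DNA beyond 50 kb held 2.40 per Mb. Within the intergenic band the density changed little with distance. It was 5.85 per Mb at 1 to 5 kb from the nearest coding gene end (584 regions), 6.59 at 5 to 10 kb (598 regions), 6.63 at 10 to 20 kb (824 regions), 6.66 at 20 to 30 kb (565 regions), 5.92 at 30 to 40 kb (385 regions) and 5.43 at 40 to 50 kb (283 regions). Regions with a peak of 1 replicate only were sparser in each band, at 3.32 to 3.99 per Mb for replicate 1 and 3.53 to 4.23 per Mb for replicate 2. Chromosomes differed more than distance bands did. Chromosome 14 had the lowest density, 4.08 per Mb with 95 regions, chromosome 19 the highest, 9.61 per Mb, and the median over the 19 chromosomes was 6.37 per Mb.

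**Figure D1:**
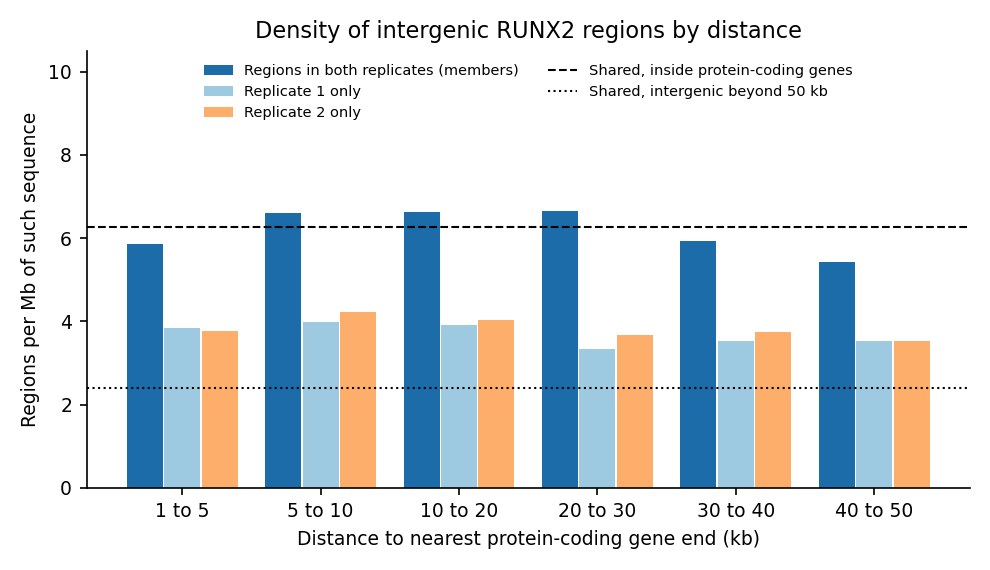
Regions per Mb of territory (y axis) by distance to the nearest protein-coding gene end in kb (x axis), for intergenic regions shared by both replicates (left bars) and regions with a peak of 1 replicate only (the other bars), with a dashed line for shared regions inside coding genes and a dotted line for those beyond 50 kb. The shared regions stay between 5.43 and 6.66 per Mb from 1 to 50 kb, above the 2.40 per Mb beyond 50 kb.

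The replicates gave these regions similar widths. The median peak width was 469 bp in replicate 1 and 464 bp in replicate 2 (mean of the medians 466.5 ± 3.54 bp, SD, n = 2), with a range of 163 to 2279 bp in replicate 1 and 160 to 2490 bp in replicate 2. All other shared regions on chromosomes 1 to 19 had medians of 499 bp in replicate 1 and 506 bp in replicate 2. Those within 1 kb of a gene end had medians of 536.5 and 544 bp, those inside coding genes 466 and 467 bp and those beyond 50 kb 464 and 477 bp, for replicates 1 and 2. The intergenic regions were thus narrower than regions at gene ends by more than the spread between replicates, and close to those inside genes. Across the 3239 regions the widths in both replicates had a Pearson correlation of 0.64 and a Spearman correlation of 0.57, and in 67.4% of regions the widths were within 1.5-fold of each other. Replicate 1 gave the wider peak in 1619 regions and replicate 2 in 1614, so neither list was wider throughout. In 3188 regions (98.4%) each replicate contributed a single peak. Peaks of 1 kb or more in both replicates were found in 74 intergenic regions (2.28%), against 416 of the other shared regions (2.85%).

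**Figure D2:**
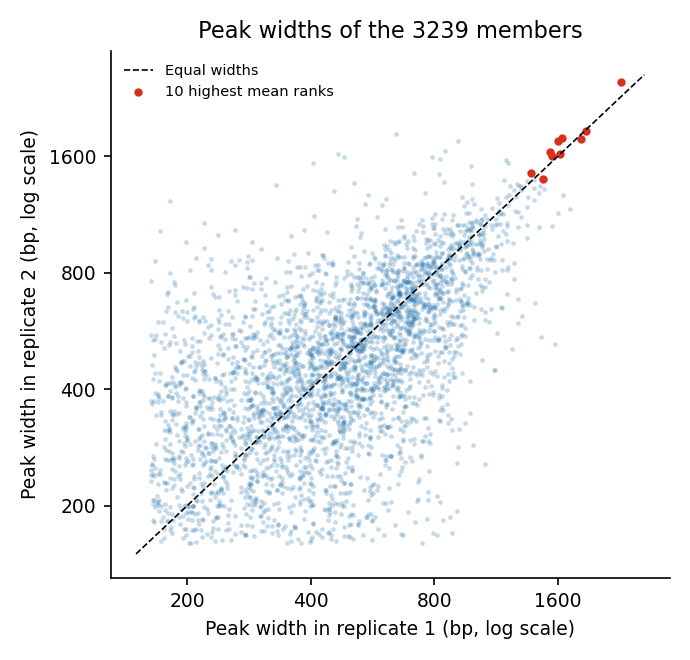
Peak width in bp in replicate 2 (y axis) against replicate 1 (x axis), both on log scales, for each of the 3239 intergenic regions. The points spread on both sides of equal width, and the widest region has 2279 bp in replicate 1 and 2490 bp in replicate 2.

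Before the lists were joined, peaks in such positions numbered 5194 of 26332 in replicate 1 (19.7%) and 5264 of 26779 in replicate 2 (19.7%), with a mean of 5229 ± 49.5 (SD, n = 2). They were found again in the other replicate somewhat less often than peaks elsewhere. In replicate 1, 3266 of them overlapped a replicate 2 peak (62.9%, 61.6 to 64.2), against 69.8% (69.2 to 70.4) of the other peaks and 68.4% of all peaks. In replicate 2, 3264 overlapped a replicate 1 peak (62.0%, 60.7 to 63.3), against 68.6% (68.0 to 69.2) of the other peaks and 67.3% of all peaks. Peaks within 1 kb of a gene end overlapped in 81.5% of cases in replicate 1 and 81.2% in replicate 2, whereas those inside genes (62.6% and 60.9%) and beyond 50 kb (60.6% and 59.2%) were near the intergenic values. Width moved with this share. Intergenic peaks were split by width into 4 classes of about equal size. In the narrowest class of replicate 1 peaks (163 to 239 bp) 34.3% of intergenic peaks overlapped, against 36.8% of other peaks, and in the widest (559 to 2279 bp) 94.1%, against 94.8%. Replicate 2 gave 30.4%, against 34.7%, in its narrowest class and 92.4%, against 94.6%, in its widest. Intergenic peaks had the lower share in all 8 classes of both replicates, by 0.67 to 5.51 percentage points. The other peaks in each class include those at gene ends, and the classes were not split by position. The 8 comparisons are therefore not specific to intergenic peaks. Being found in both replicates was part of how the regions were chosen, so these shares describe that choice.

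**Figure D3:**
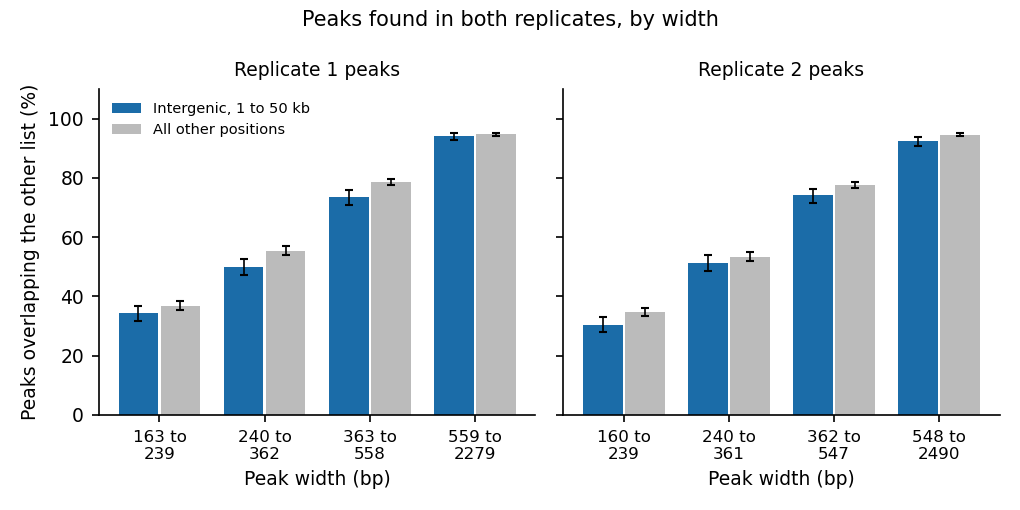
Percent of peaks that overlap a peak of the other replicate (y axis) by class of peak width in bp (4 classes of about equal size) (x axis), for intergenic peaks (left bars) and all other peaks (right bars) of each replicate, with 95% Wilson intervals. The share is 34.3% and 30.4% for the narrowest intergenic peaks of replicates 1 and 2 and 94.1% and 92.4% for the widest, each below that of the other peaks of the same class. The other peaks include those at gene ends.

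The widest intergenic regions had neighbours ranging from mitochondrial to matrix genes. The one with the highest mean rank of width over both replicates, chr9:66988717-66991220, measured 2279 bp (replicate 1) and 2490 bp (replicate 2). It lay 14597 bp upstream of Lactb, which encodes a mitochondrial protein, and the gene on its other side was the tropomyosin gene Tpm1, 32509 bp away. Next to Wnt10a, a Wnt ligand gene, a region of 1826 bp in replicate 1 and 1776 bp in replicate 2 lay 3261 bp from the gene end. Beside Sphk1, which encodes the kinase that makes sphingosine-1-phosphate, a region of 1640 bp in replicate 1 and 1781 bp in replicate 2 lay 7197 bp upstream. A region of 1616 bp in replicate 1 and 1618 bp in replicate 2 lay 42910 bp upstream of Cd44, the hyaluronan receptor gene. Beside Col1a2, which encodes the alpha 2 chain of type I collagen, the main protein of bone, a region of 1528 bp in replicate 1 and 1637 bp in replicate 2 lay 48425 bp upstream, at chr6:4456245-4457957. The other 5 of the 10 widest were nearest to Tcte2, Zfp958, Sema4f, Fbxo28 and Katnal1.

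The nearest coding gene was often not the only candidate neighbour. The median distance to the nearest coding gene end was 14670 bp, with quartiles of 6848.5 and 27137.5 bp, and 1182 regions (36.5%) lay within 10 kb. A coding gene stood within 50 kb on both sides of 1518 regions (46.9%), and in 868 regions (26.8%) the farther neighbour was less than 2 times as far as the nearer. For 1548 regions (47.8%) the end of a noncoding gene was nearer than that of any coding gene, and the median distance to any gene end was 7578 bp. A noncoding gene covered 504 regions (15.6%), among them 477 (14.7%) inside long noncoding RNA genes. The rule puts no region within 1 kb of these ends, so the distances begin there. Just inside the inner limit lay the regions nearest to D5Ertd579e, Plekhb1 and Pdlim5, 1001, 1008 and 1014 bp from a gene end, and just outside it those nearest to Snai1, Gcc2 and Ankra2, at 991, 995 and 998 bp. At the outer limit the last regions kept were nearest to Ch25h, Ackr3 and Tktl2, at 49780, 49831 and 49871 bp, and the first left out to Dph5, Chst2 and Ror1, at 50060, 50115 and 50251 bp.

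In all, 2427 protein-coding genes were the nearest gene to at least 1 intergenic region, 11.7% of the 20665 on chromosomes 1 to 19, and 4797 (23.2%) had a region within 50 kb of either end. Only 18347 of the 20665 had room beside them for such a region, and shares of all coding genes count the rest as well. Most of these 2427 genes, 1839, were nearest to 1 region, 432 to 2, 112 to 3, 26 to 4, 12 to 5 and 6 to 6. The same genes also tended to carry other shared regions. A shared region lay within 1 kb of an end of 951 of them (39.2%, 37.3 to 41.1), against 32.4% (31.7 to 33.1) of the coding genes that were nearest to none, with 33.2% of all coding genes having one. Among genes nearest to 2 or more intergenic regions the share was 45.2% (41.3 to 49.3), and among those nearest to 1 it was 37.2% (35.1 to 39.5). A shared region lay inside 1148 of the nearest genes (47.3%, 45.3 to 49.3), against 29.2% (28.6 to 29.9) of the others and 31.4% of all coding genes. Gene length moved with this, with a median of 30.5 kb for the nearest genes and 16.3 kb for the others, and its part in the difference was not tested.

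The nearest genes included many genes of bone matrix, of the early response and of osteoblast signalling. In 19 lists with 360 genes on chromosomes 1 to 19, 121 genes were nearest to an intergenic region. The lists were chosen with earlier results of these data known, so their shares are a description and no test. Some listed genes are neighbours, such as Col6a1 and Col6a2, and the intervals treat them as independent. In 12 lists the share lay between 30% and 75%, in 4 between 9.52% and 14.3%, and in 3 no gene was nearest to a region, against 11.7% of all coding genes. A gene with more empty DNA around it has more room for such regions, and the room differed between lists. The median length of flanking intergenic territory was 48.7 kb for osteoblast matrix genes and 35.6 kb for early response genes, and 14.9 kb for all coding genes. Counted per Mb of that territory, the 12 lists held 9.52 to 33.1 regions per Mb and the 4 lists 3.13 to 13.6, against 6.27 for all coding genes, so the 2 groups of lists overlapped on this scale.

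**Figure D4:**
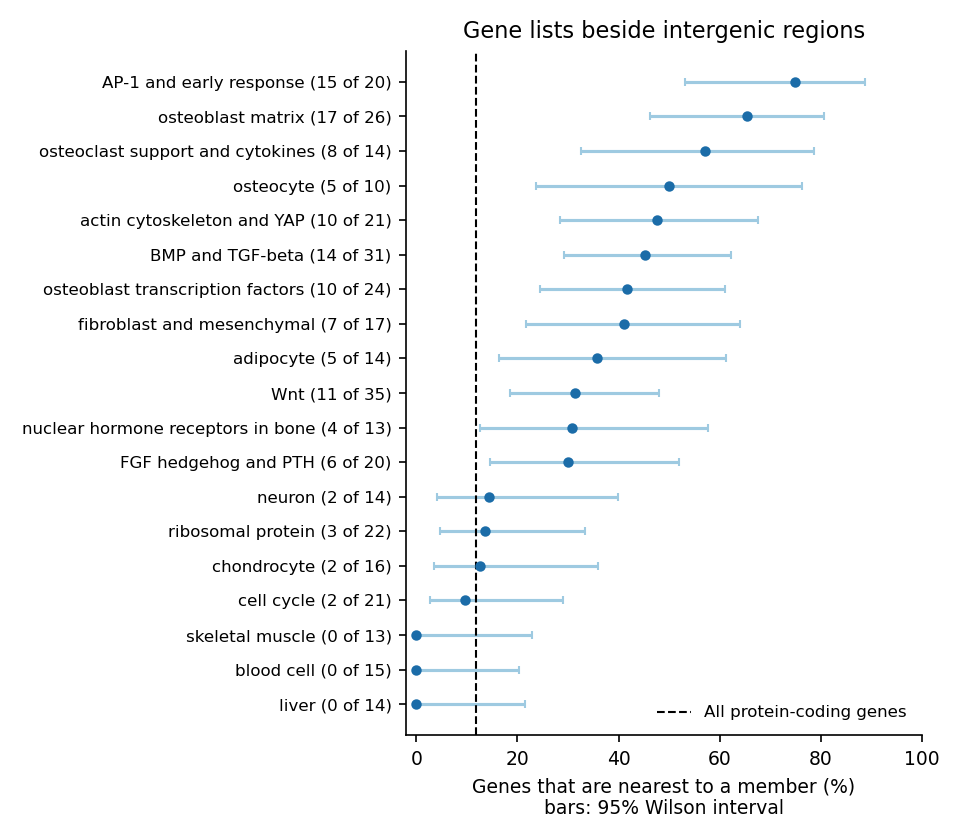
Percent of the genes of each list that were the nearest coding gene to an intergenic region (x axis, points with 95% Wilson intervals), with the dashed line at 11.7% for all protein-coding genes. The early response list is highest at 75% and the osteoblast matrix list next at 65.4%, and the liver, blood cell and skeletal muscle lists are at 0. The lists were chosen with earlier results of these data known.

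Osteoblast matrix genes, which mostly encode collagens and other matrix proteins, with enzyme genes such as Lox and Mmp14 among them, were nearest to 35 regions. Of 26 genes, 17 had one (65.4%, 46.2 to 80.6), or 29.2 regions per Mb of flank. Col5a1, the gene of the alpha 1 chain of type V collagen, had 5 regions upstream, at 11582, 21563, 24125, 27753 and 43469 bp from its end. The region at 21563 bp was the widest of these, with 649 bp in replicate 1 and 734 bp in replicate 2, and the one at 24125 bp was narrow in both, with 237 bp and 218 bp. Tnc, which encodes the matrix glycoprotein tenascin C, had regions on both sides, 2 downstream at 1038 and 30046 bp and 3 upstream at 18446, 29486 and 39227 bp. Col6a2, a type VI collagen gene, had 4 upstream regions at 10682, 25337, 29791 and 41338 bp, with widths of 264 to 524 bp in replicate 1 and 327 to 818 bp in replicate 2.

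Spp1, which encodes osteopontin, had 3 regions upstream. They lay at 8918 bp (297 bp wide in both replicates), at 27108 bp (1210 bp in replicate 1 and 1199 bp in replicate 2) and at 41961 bp (384 bp in replicate 1 and 661 bp in replicate 2), and the middle one, chr5:104407399-104408652, was far wider than its neighbours in both replicates. Mepe, a neighbouring gene of the same family of bone phosphoproteins, had 3 regions downstream, at 6131, 36153 and 42525 bp. The one at 36153 bp measured 772 bp in replicate 1 and 969 bp in replicate 2. Dmp1, another gene of this family and made mainly by osteocytes, had 1 region 37852 bp downstream, of 320 bp in replicate 1 and 652 bp in replicate 2. Ibsp, the bone sialoprotein gene between Dmp1 and Mepe, was nearest to none. The closest region lay 33.3 kb from Ibsp and is counted under Mepe.

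Among the other genes always followed in RUNX2 studies, Sp7 alone was nearest to a region of this kind. Of all coding genes 11.7% were nearest to one, so so few genes cannot show a shortfall. Their room differed, with flanking intergenic territory from 3.8 kb for Bglap and 19.1 kb for Sp7 to 51.3 kb for Mmp13. Runx2 itself was nearest to none, and the closest lay 545 kb from it, beside Cdc5l. Sp7, which encodes the osteoblast transcription factor osterix, had 1 region 10981 bp away at chr15:102377446-102378240, with 436 bp in replicate 1 and 795 bp in replicate 2. Col1a1, the gene of the alpha 1 chain of type I collagen, had a region 5120 bp from its end, with 580 bp in replicate 1 and 627 bp in replicate 2, but the region lay nearer to Sgca, a sarcoglycan gene. Alpl, the alkaline phosphatase gene, lay 57.6 kb from the closest intergenic region, Bglap, the osteocalcin gene, 128 kb, and Mmp13, a collagenase gene, 471 kb. Chosen after the values were seen, Cbfb, the gene of the RUNX2 partner, had 1 region 5992 bp upstream, of 555 bp in replicate 1 and 720 bp in replicate 2.

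Osteoblast transcription factor genes had a region in 10 of 24 cases (41.7%, 24.5 to 61.2). Their flanks were long, with a median of 68.4 kb, and held 9.75 regions per Mb, against 6.27 for all coding genes. The count was 16 without replicate 1 (66.7%, against 17.4% of all coding genes). With an outer limit of 20 kb it was 5 (20.8%, against 8.43%). Bhlhe40, a basic helix-loop-helix repressor gene, had 4, at 1634, 10685, 26173 and 42865 bp. The region at 10685 bp measured 1031 bp in replicate 1 and 1010 bp in replicate 2. The homeobox genes Dlx6 and Msx2, which act in skull and limb development, had 2 each. Those of Dlx6 lay 32678 and 36136 bp away, and those of Msx2 22932 bp downstream and 41959 bp upstream. Zeb1, a zinc-finger repressor gene, had 1 region 44574 bp away with 1014 bp in replicate 1 and 889 bp in replicate 2.

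Osteocyte genes were nearest to a region in 5 of 10 cases (50%, 23.7 to 76.3), with 9 regions and 23.3 per Mb of flank. With peaks kept only above their list's median width, 3 genes had one (30%, against 6.23% of all coding genes). Cd44 had 3, all upstream, at 15523, 33322 and 42910 bp, the farthest being the widest. Fgf23, the gene of the hormone that lowers blood phosphate, had 1 region 15527 bp upstream with 604 bp in replicate 1 and 850 bp in replicate 2.

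Genes through which osteoblast-lineage cells act on osteoclasts and immune cells had a region in 8 of 14 cases (57.1%, 32.6 to 78.6), with 18 regions in all and 21.5 per Mb of flank. With an outer limit of 20 kb, 2 of the 14 genes had one (14.3%, against 8.43% of all coding genes). Csf1, the macrophage colony-stimulating factor gene needed for osteoclast formation, had 4, at 8384 bp downstream and at 9162, 16112 and 36444 bp upstream. The replicates differed most at 16112 bp, where the peak measured 456 bp in replicate 1 and 1302 bp in replicate 2. Lif, a cytokine gene, had 3 downstream regions at 22181, 27253 and 36261 bp, and the last measured 1257 bp in replicate 1 and 1157 bp in replicate 2. Ptgs2, which encodes the inducible cyclooxygenase, had 3 downstream at 7347, 22308 and 43320 bp. Its middle region measured 646 bp in replicate 1 and 1826 bp in replicate 2, again a region where the replicates differed. Ccl2, a monocyte chemokine gene, had 2, at 20210 and 28465 bp. Chosen after the values were seen, Tnfsf11, the RANKL gene, had 1 region 32384 bp downstream (282 bp in replicate 1, 303 bp in replicate 2) and 1 region 39812 bp upstream (534 bp in replicate 1, 378 bp in replicate 2).

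BMP and TGF-beta genes, whose signals drive osteoblast commitment, had a region in 14 of 31 cases (45.2%, 29.2 to 62.2), with 19 regions and 14.2 per Mb of flank. The count was 8 with an inner limit of 3 kb (25.8%, against 9.50% of all coding genes). Without regions inside noncoding genes it was 9 (29.0%, against 10.2%). Smad7, Id3 and Id1 had more than 1 region each. The other genes with a region had 1 each, among them the receptor genes Tgfbr2, Tgfbr3 and Bmpr2 and the ligand genes Bmp4 and Tgfb2. Smad7, an inhibitory SMAD gene, had 3 at 9657, 13649 and 24649 bp, and Smad6, the other inhibitory SMAD gene, had 1 at 10904 bp downstream with 1310 bp in replicate 1 and 619 bp in replicate 2. Id3, which encodes a helix-loop-helix inhibitor and BMP target, had 3 upstream at 9093, 20105 and 26491 bp, and its relative Id1 had 2, at 4259 and 9231 bp.

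Wnt genes had a region in 11 of 35 cases (31.4%, 18.6 to 48.0), or 9.52 per Mb of flank, against 6.27 for all coding genes. The count was 19 without replicate 1 (54.3%, against 17.4% of all coding genes) and 17 without replicate 2 (48.6%, against 17.0%). With peaks kept only above their list's median width it was 6 (17.1%, against 6.23%). Axin2, a feedback inhibitor of Wnt signalling, had 3, at 19684 bp upstream and at 1700 and 13107 bp downstream. Sfrp2, a secreted Wnt modulator gene, had 2 upstream, at 7972 and 25286 bp, and the ligand gene Wnt7b had 2, at 11739 and 29366 bp. Among FGF, hedgehog and PTH genes 6 of 20 had a region (30%, 14.5 to 51.9), or 13.5 per Mb of flank. With an outer limit of 20 kb, 3 of these 20 had one (15%, against 8.43% of all coding genes). Of the 13 regions of this list, 5 were nearest to Dusp6, the gene of the phosphatase that switches off ERK. Its regions lay at 20753 and 25863 bp upstream and at 20888, 29857 and 41499 bp downstream, and the one at 29857 bp was the widest, with 1399 bp in replicate 1 and 1392 bp in replicate 2. Fgfr2, an FGF receptor gene, had 3, the hedgehog effector gene Gli3 had 2, and Etv4, a transcription factor gene downstream of FGF signals, had 1.

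Genes of AP-1 and the early response, which growth signals switch on within minutes, had a region in 15 of 20 cases (75%, 53.1 to 88.8), with 27 regions and 33.1 per Mb of flank. This was the highest share of the 19 lists, but with an inner limit of 3 kb it was 50%, below the osteoblast matrix list (61.5%) and the osteoclast support list (57.1%). Fos had 6, at 11441, 18421 and 26621 bp upstream and at 9049, 20586 and 42408 bp downstream. Their widths ran from 250 to 1033 bp in replicate 1 and from 203 to 952 bp in replicate 2, and the region at 18421 bp, chr12:85454953-85455985, was the widest in both. Klf6, a zinc-finger transcription factor gene, had 3, at 15941 and 23958 bp upstream and 22489 bp downstream. Ier5 and Ier3, a pair of immediate early genes, had 2 each, and the farther region of Ier5, at 20843 bp downstream, measured 1265 bp in replicate 1 and 1255 bp in replicate 2.

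Actin cytoskeleton and YAP genes had a region in 10 of 21 cases (47.6%, 28.3 to 67.6), or 21.9 per Mb of flank. Tead1, the gene of a DNA-binding partner of YAP, had 2, at 11458 and 16018 bp, and the YAP target gene Ccn1 had 2 upstream, at 1999 and 35170 bp. The vinculin gene Vcl had 2 upstream, at 5031 and 37269 bp, and Ankrd1, another YAP target gene, had 1 upstream at 9493 bp with 808 bp in replicate 1 and 885 bp in replicate 2. Fibroblast and mesenchymal genes had a region in 7 of 17 cases (41.2%, 21.6 to 64.0), or 12.3 per Mb of flank. The count was 3 (17.6%) with an inner limit of 3 kb, against 9.50% of all coding genes. It was also 3 with peaks kept only above their list's median width, against 6.23% of all coding genes. The fibulin gene Fbln2 had 2 upstream, at 4557 and 9921 bp, and Loxl1, Vim and Cd34 had 1 each.

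Genes of related and unrelated cell types were mixed. Adipocyte genes, which share a mesenchymal origin with osteoblast genes, had a region in 5 of 14 cases (35.7%, 16.3 to 61.2), or 14.3 per Mb of flank. There were 2 each at Lep and Adipoq, the genes of leptin and adiponectin, and 1 each at Pparg, Lpl and Cebpb. The count was 8 without replicate 1 (57.1%, against 17.4% of all coding genes) and 3 with an inner limit of 3 kb (21.4%, against 9.50%). With peaks kept only above their list's median width it was 2 (14.3%, against 6.23%). Nuclear hormone receptor genes had one in 4 of 13 cases (30.8%, 12.7 to 57.6), or 15.9 per Mb of flank, with 3 at the retinoid receptor gene Rxra, 2 each at the vitamin D receptor gene Vdr and Nr2f2, and 1 at Nr2f1. The count was 2 without regions inside noncoding genes (15.4%, against 10.2% of all coding genes). Chondrocyte genes had one in 2 of 16 cases (12.5%, 3.50 to 36.0), at Sox9 and Comp. Per Mb of flank this list held 3.13 regions, below the 6.27 of all coding genes. Without replicate 1 its count was 5 (31.25%, against 17.4% of all coding genes). Neuron genes had one in 2 of 14 cases (14.3%), at Slc17a7 and Nefl, or 3.39 per Mb of flank. Their count was 5 without replicate 2 (35.7%, against 17.0% of all coding genes).

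Housekeeping lists were near the background by share of genes and above it per Mb of flank. Cell cycle genes had a region in 2 of 21 cases (9.52%, 2.65 to 28.9), 3 regions at Ccne1 and 1 at Ccnd1, and ribosomal protein genes in 3 of 22 (13.6%, 4.75 to 33.3), at Rps20, Rpl13 and Rps14. Their flanks were short, with medians of 5.30 and 5.15 kb, and held 10.49 regions per Mb for the cell cycle list and 13.6 for the ribosomal protein list, against 6.27 for all coding genes. Without replicate 1 the cell cycle count was 4 (19.05%, against 17.4% of all coding genes). No gene of 14 for liver, of 15 for blood cells or of 13 for skeletal muscle was nearest to a region, counts of 0 that allow shares of up to 21.4%, 20% and 23.1% (3 genes of each list). These sit beside 11.7% for all coding genes, so lists of this size could not show a shortfall. Without replicate 2, 3 liver genes (21.4%) and 1 muscle gene (7.69%) had a region, against 17.0% of all coding genes.

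Among all coding genes, 6 were nearest to 6 regions each. Irf2bp2, which encodes a transcriptional corepressor, had 2 downstream and 4 upstream regions between 9535 and 48311 bp. Tns3, which encodes a tensin of cell-matrix adhesions, had all 6 upstream, between 10231 and 44932 bp, and 12 more shared regions inside the gene. Thbs2, the thrombospondin 2 gene, had 3 on each side between 2823 and 45303 bp, and Hes1, a Notch target gene, had 6 between 1286 and 43781 bp. The Hes1 regions were of even width, from 385 to 514 bp in replicate 1 and from 268 to 517 bp in replicate 2. The gene 1600014C23Rik had 1 downstream and 5 upstream. Another 12 genes had 5 each, Col5a1 and Tnc among them. Those with the largest summed width were Dusp6, Kmt2e, which encodes a chromatin regulator, Atp8b4, a phospholipid flippase gene, and Rgs3, a regulator of G-protein signalling.

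**Figure D5:**
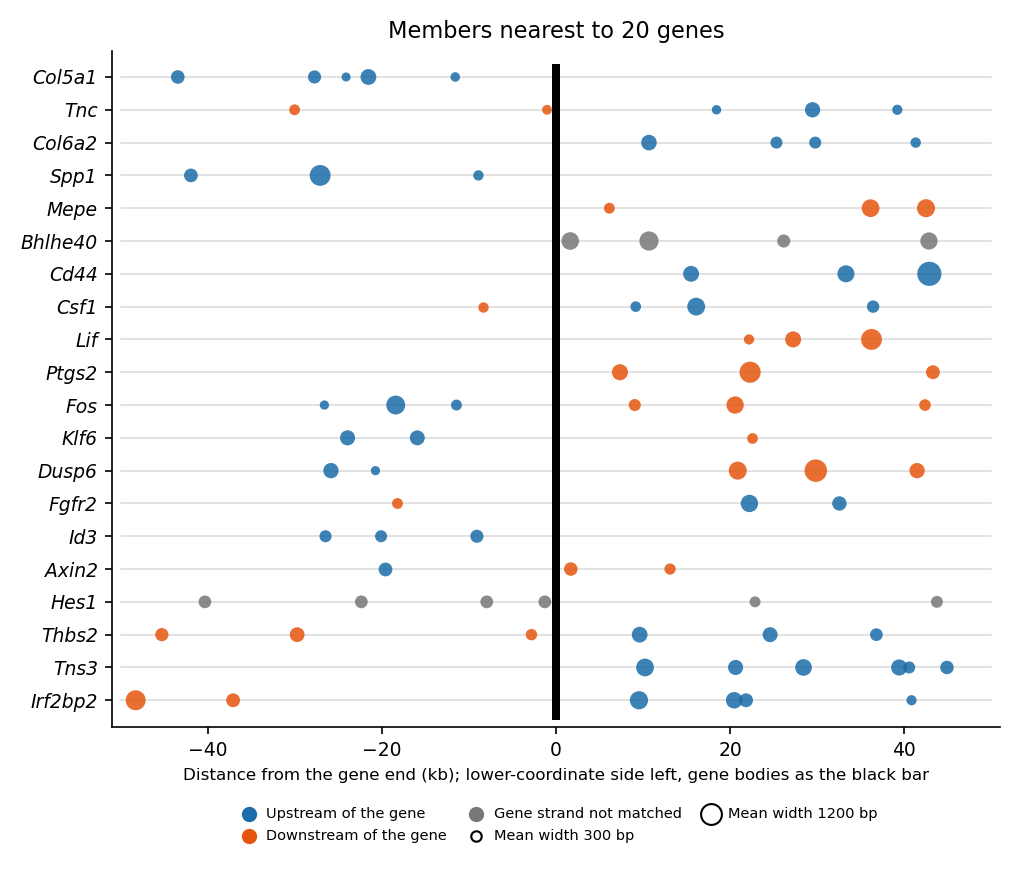
Position of intergenic regions around 20 genes (rows), in kb from the nearer gene end (x axis), with the gene body as the black bar, colours for upstream, downstream or unmatched strand, and point area for the mean width of both replicates. Regions of Col5a1, Col6a2, Spp1 and Tns3 lie on the upstream side only, whereas Fos, Thbs2 and Dusp6 have regions on both sides. The intergenic room on each side of a gene was not counted, so the sides cannot be compared.

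Most intergenic regions had no other region of this kind within 10 kb. Shared regions at gene ends, inside genes or beyond 50 kb were not counted as neighbours here. Of the 3239 intergenic regions, 643 (19.9%) had another of them within 10 kb. These 643 formed 241 pairs, 37 runs of 3, 10 runs of 4 and 2 runs of 5. The densest run of 5 lay at chr17:45745664-45767356, upstream of 1600014C23Rik at 11787 to 33043 bp, with widths of 230 to 989 bp in replicate 1 and 306 to 997 bp in replicate 2. The other run of 5 lay at chr7:19316416-19338953, between Fosb, an AP-1 gene, and Ercc1, a DNA repair gene, with widths of 495 to 783 bp in replicate 1 and 227 to 508 bp in replicate 2. Runs of 4 lay beside Col5a1, at 11582 to 27753 bp upstream, and beside Rgs3, at 26427 to 36837 bp downstream. Beside Nfatc2, which encodes a calcium-dependent transcription factor, a run of 4 held peaks of up to 1436 bp in replicate 1 and 1287 bp in replicate 2. Another run of 4 lay between the cytoplasmic myosin gene Myh9 and the thioredoxin gene Txn2. The remaining runs of 4 were nearest to B4galnt4, Plekha5 and Aebp2, Epn2, Socs3, Adra1b and Myo16.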

How the data were processed

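CUT&Tag peak lists of 2 replicate libraries of untreated MC3T3-E1 cells were used, and each list was treated as 1 replicate of the single group. Per the submitters' processing notes, fastp 0.19.6, Bowtie2, deepTools and the build GRCm38 (mm10) were used. How peaks were called, at which threshold and with what control is not given in the sources used here. Both deposited lists carry 5 unnamed columns (number, chromosome, start, end and width) and no score, so the authors' values are positions and widths in bp, listed per replicate, and depth is unknown. A stricter threshold could only be set on width.

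The members and gene lists were chosen with earlier results of these data known. Overlapping peaks were merged (at least 1 bp), and counts of overlapping peaks equalled those of bedtools 2.31.1. Genes came from RefSeq spans (GRCm38.p6, 47042 genes on chromosomes 1 to 19, 20665 of them coding) without exons. Strand came from the promoter table, which matched 77.5% of the nearest genes, so no share of upstream regions is given. Territory was counted on a 10-bp grid between the first and the last gene of each chromosome. Regions per Mb therefore depend on gene annotation and include DNA where reads cannot be mapped. Wilson intervals are at the 95% level. The genes always named are the 8 of RUNX2 studies. The others are those nearest to the 10 widest regions, the 10 genes nearest to the most regions, up to 4 genes of each list with the most regions (ties by width) and the 3 regions on each side of a limit. Adding the AP-1 letters to the planned RUNX motif was decided after the data were seen. The scripts were tested on simulated lists. Python 3.11.15, pandas 2.3.3, numpy 2.4.6, statsmodels 0.14.6 and matplotlib 3.10.9 were used.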

Additional observations from a re-analysis of the deposited data

Results flagged for a closer look

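Chromosome X was left out of the regions described above. On it, 48 of 289 shared regions (16.6%) met the same position rule, against 18.2% on chromosomes 1 to 19, and they were nearest to 41 coding genes. Their median widths were 390 bp in replicate 1 and 370 bp in replicate 2, below the medians of 469 and 464 bp on chromosomes 1 to 19.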

How the results depend on the processing

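The number of regions, their distances, widths, runs, nearest genes and share inside noncoding genes were recomputed under 9 settings and the list counts under 10. Densities per Mb, overlap between replicates, regions at or inside the nearest genes and microRNA counts were not. Against 3239 regions as reported, there were 2427 with a reciprocal overlap of at least 50% and 2554 with an inner limit of 3 kb. There were 2735 without regions inside noncoding genes and 4033 with an outer limit of 100 kb. With a reciprocal overlap of at least 50%, the median distance to the nearest coding gene end was 14742 bp, the median width 504.5 bp and the share of regions with another within 10 kb 16.5%. With peaks kept only above their list's median width, 1527 regions and 1287 nearest genes were left, with a median distance of 14871 bp, a median width of 645 bp, 11.6% of regions with another within 10 kb, 37.7% within 10 kb of a coding gene, 15.8% inside noncoding genes and 80 list genes in place of 121. With the position taken from replicate 2 the median distance was 14575.5 bp, the median width 465.75 bp, and 19.9% had another within 10 kb and 15.4% lay inside noncoding genes. With an inner limit of 3 kb the median distance was 16866.5 bp, with 18.1% having another within 10 kb, 29.6% within 10 kb of a coding gene and 12.6% inside noncoding genes. With an outer limit of 20 kb, 2006 regions were left, with a median distance of 8467.5 bp, a median width of 459.5 bp, 15.6% with another within 10 kb, 58.9% within 10 kb of a coding gene and 12.8% inside noncoding genes. With an outer limit of 100 kb these values were, in the same order, 20152 bp, 467.5 bp, 20.2%, 29.3% and 17.5%. Without regions inside noncoding genes the median distance was 13599 bp, with 18.7% having another within 10 kb, 38.9% within 10 kb of a coding gene and 0% inside noncoding genes. Leaving out a replicate gave 5194 to 5264 regions, a median distance of 14392 to 14454.5 bp, a median width of 361 to 362 bp, 26.2% to 26.4% with another within 10 kb, 37.1% to 37.3% within 10 kb of a coding gene and 15.6% to 15.8% inside noncoding genes, since peaks of 1 list need no partner. It gave 3521 to 3594 nearest genes and 153 to 156 list genes.

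Of the 190 list counts, 148 stayed within 1.5 times the value reported. Of 73 other values, 28 stayed the same by the rule used. Under it a count could change by up to 1.5 times, and any other value by less than the SD between replicates. The ratio to the share of all coding genes ranged from 3.15 to 8.03 for the osteoblast matrix list and from 3.66 to 9.63 for the early response list. Among the 12 lists with the higher shares, its lowest values were 1.503 for nuclear hormone receptor genes without regions inside noncoding genes, 1.51 for FGF, hedgehog and PTH genes with every gene end within 50 kb counted, and 1.70 for the osteoclast support list at an outer limit of 20 kb. For chondrocyte, cell cycle, ribosomal protein, neuron and liver lists it lay on both sides of 1. The alternative of motif counts in windows around each region was not run, because genome sequence was not used here. No paired analysis was possible because the series holds 1 group. Unknown depth, the lack of a control and the use of spans without exons limit what positions can show.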

Other observations

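Several intergenic regions lay inside long noncoding RNA genes. Of 426 noncoding genes that covered a region, 402 were long noncoding RNA genes, and 19 genes covered 3 or more. Gm40121, beside Csf1, covered 6, 3 of them upstream of Csf1, 1 downstream of it and 2 nearer to Ahcyl1. The noncoding gene 5031425E22Rik, beside Kmt2e, covered all 5 regions of that gene. Airn, the noncoding RNA of the imprinted Igf2r locus, covered 3, with widths of 508, 914 and 628 bp in replicate 1 and 617, 284 and 662 bp in replicate 2. Bmncr, a noncoding gene known from bone marrow stem cells, covered 2, at chr1:133978526-133978955 (352 bp in replicate 1, 347 bp in replicate 2) and chr1:133991368-133991859 (349 bp in replicate 1, 394 bp in replicate 2), with Prelp and Fmod as the nearest coding genes. Dlx6os1 covered both regions of Dlx6, Lockd covered 1 region 18.7 kb from Cdkn1b, and Chaserr covered 1 region 10.4 kb from Chd2. These genes were chosen after their values were seen.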
